A study of Mus musculus with 8 samples.

Results

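Chemokine receptors and the chemokine Cxcl12 were described across 4 sorted populations of mouse common myeloid progenitors. The genes were chosen by name, with earlier results of these data known. They are the receptors Cxcr4, Ccr1, Ccr2, Ccr7, Ccr9, Cx3cr1, Cxcr2 and Cxcr3, and Cxcl12 as the ligand of Cxcr4. These make 9 of the 24411 genes in the deposited tables. Shares over all genes are given beside their counts for scale and do not test the 9 genes as a set. All 9 were among the 13177 genes that passed the filter on low counts, which keeps a gene read in the libraries of a single population. RNA was sequenced from bone marrow cells of wild-type C57BL/6 mice, with 2 libraries for each population. Every population was sorted as KIT+ and CD16/32-. The CD34bright cells were CD34bright CD41+ CD9+. The CD48dim cells were CD34dim, CD41+, CD9+ and dim for CD48, and the CD48bright cells carried the same markers with bright CD48. The remaining population, called CD41/CD9-negative here, was CD34dim CD41- CD9-. Whether the replicate libraries stem from different animals or sorting runs is not stated, so every p-value reflects the scatter among the 8 libraries alone, which may be technical.

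Chemokine receptors are G protein-coupled receptors that steer leukocytes along gradients of secreted chemokines. In the marrow, Cxcl12 made by stromal cells holds stem and progenitor cells in place through Cxcr4. Ccr2 is known for the release of monocytes from the marrow, Cxcr2 for that of neutrophils, and Ccr7 and Ccr9 for the homing of lymphoid and dendritic cells.

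The libraries held 7237587 to 20632005 expected counts, the read numbers that the deposited tables assign to genes. Levels are given as CPM, counts scaled to a common library size after TMM normalisation. The libraries of CD48dim were the least alike of any population, with a Spearman correlation across tested genes of 0.836 against 0.954 to 0.976, and genes within a library are not independent. In CD48dim replicate 2, the nuclear RNA Malat1 reached 38947 CPM, against 5004 to 14867 in the other 7 libraries. Itga2b, the gene of CD41, was at 2.18 and 2.83 CPM in CD41/CD9-negative and between 64.3 and 155 elsewhere. Cd48 was at 16.9 and 35.8 CPM in CD48dim and between 157 and 246 elsewhere, so these sort markers followed the gates.

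By mean CPM, the receptors Cxcr4, Ccr2 and Cx3cr1 were lowest in CD48dim and highest in CD41/CD9-negative, and Cxcl12 ran the other way. Ccr1 and Cxcr3 were also lowest in CD48dim but highest in CD48bright. Ccr7 and Ccr9 were also highest in CD41/CD9-negative but lowest in CD48bright and CD34bright. Cxcr2 was highest in CD34bright and lowest in CD41/CD9-negative. A gene passed at a Benjamini-Hochberg adjusted p under 0.05 over all tested genes in edgeR's quasi-likelihood test. Between CD41/CD9-negative and CD48dim 4 of the 9 genes passed, where 4.02% of all genes did. Of them 3 were higher in CD41/CD9-negative (Cxcr4, Ccr9 and Cx3cr1; 1.98% of all genes) and 1 was lower (Cxcl12; 2.04%). The libraries did not overlap for any of the 9 genes, against 43.6% of all genes. The median log2 fold change was 4.05 for the 9 genes, or 3.92 with the genes that had no count in a population held at their bound, and -0.06 for all genes tested. In a test of any difference among the 4 populations 4 of 9 genes passed (Cxcl12, Ccr9, Cx3cr1 and Cxcr2), where 2.44% of all genes did. Without CD48dim replicate 1 or 2, 7 of 9 passed in each fit, where 24.7% and 9.11% of all genes did. Without CD41/CD9-negative replicate 1 or 2, 1 and 2 passed (0.226% and 0.339% of all genes), and without CD34bright replicate 1 or 2, 3 and 2 passed (1.18% and 1.19%).

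The other pairs held fewer calls. In CD48bright against CD48dim 1 gene passed (Cx3cr1; background 0.387%), with 8 genes not overlapping (39.1% of all genes). In CD34bright against CD48dim 1 gene passed (Cx3cr1; 0.577%), with 7 not overlapping (46.3%). In CD34bright against CD41/CD9-negative 2 genes passed (Cxcr2 and Ccr9; 0.842%), with 7 not overlapping (51%). Between CD41/CD9-negative and CD48bright 0 of 9 passed with edgeR (0.212% of all genes), and 5 passed with DESeq2 (2.78% of all genes). In that pair 6 had an unadjusted p under 0.05 with edgeR, as had 938 of all 13177 genes, and 8 did not overlap (40.1% of all genes). Between CD34bright and CD48bright 0 passed with edgeR or DESeq2 (0% and 0.281% of all genes). There 1 had an unadjusted p under 0.05, as had 262 of all genes, and 5 did not overlap (32% of all genes). Pairs that share libraries are not independent of each other. With the replicate number as a block, 1 gene passed in CD41/CD9-negative against CD48bright, where 0.751% of all genes did, and 3 passed in CD34bright against CD48dim (5.18%).

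Leaving out a library moved these counts, and the calls over all genes moved with them. Without CD48dim replicate 1, 6 of the 9 genes passed in CD48bright against CD48dim (23.3% of all genes), 7 in CD41/CD9-negative against CD48dim (23.9%) and 5 in CD34bright against CD48dim (28.4%). Without CD48dim replicate 2, the same pairs held 2 (2.92%), 5 (10.4%) and 4 calls (4.84%). In CD41/CD9-negative against CD48bright 6 genes passed without CD48dim replicate 1 (3.09% of all genes) and 6 without replicate 2 (3.08%), and in CD34bright against CD41/CD9-negative also 6 (5.44%) and 6 (5.46%). Other libraries lowered the counts. In CD41/CD9-negative against CD48dim 1 and 2 genes passed without CD41/CD9-negative replicate 1 and 2 (0.573% and 0.749% of all genes). In CD34bright against CD48dim 0 passed with edgeR without CD34bright replicate 1 or without either CD41/CD9-negative library, where 0% of all genes passed. In CD34bright against CD41/CD9-negative 0 passed without any one library of the pair, where 0.0212% to 0.0636% of all genes passed.

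**Figure D1:**
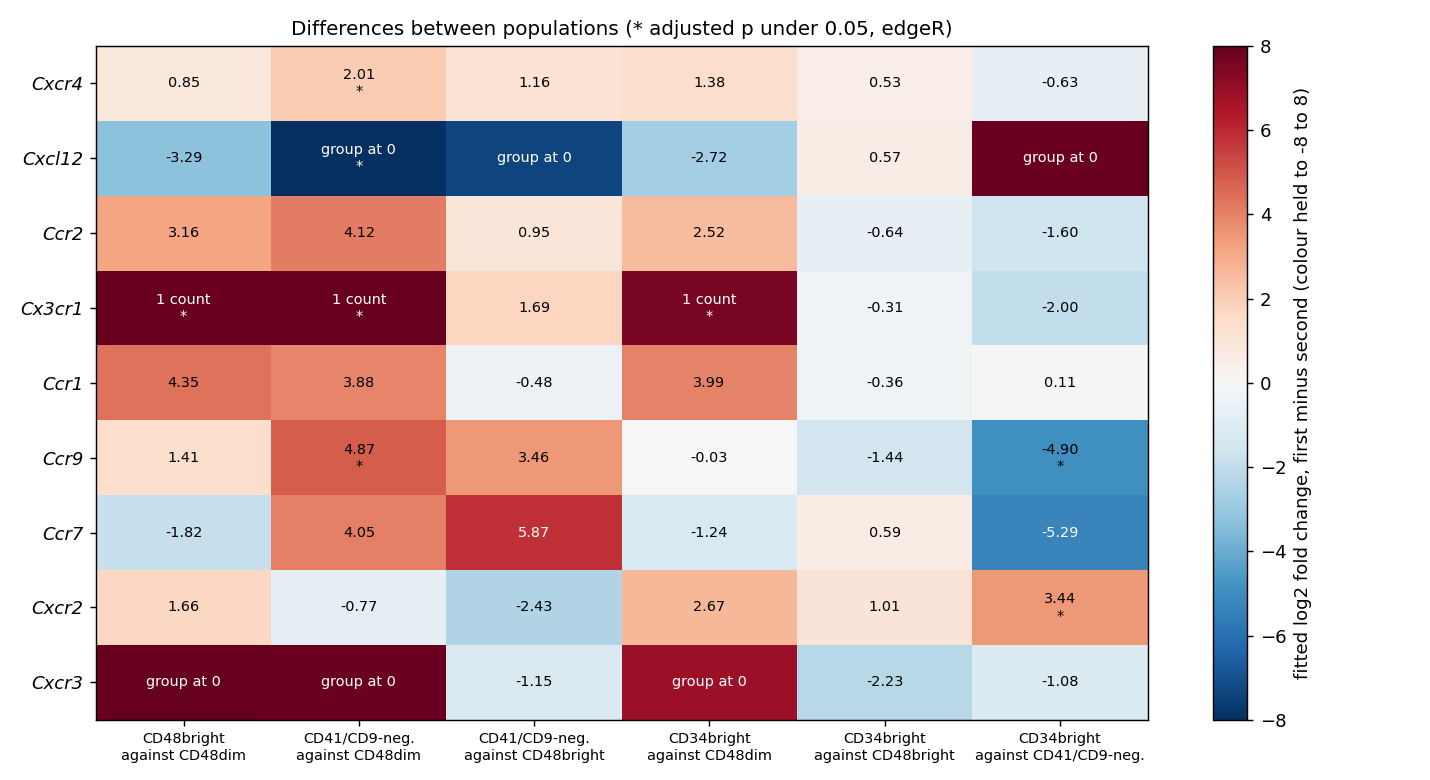
Fitted log2 fold changes of the 9 genes (rows) in the 6 pairs of populations (columns), red where the population named first was higher. A star marks an adjusted p under 0.05 with edgeR, which 4 genes reached in CD41/CD9-negative against CD48dim, and cells against a population with no count or 1 count give that instead of a fold.

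The promoters of the 4 genes that passed in that pair are shown because their transcripts moved between the same populations. They are RefSeq windows of GRCm38.p6, the assembly of mm10, from 250 bases before to 50 bases after the start, and 8 of the 9 genes matched an entry. Cxcr4 is at chr1:128592250-128592549 (minus strand), Cxcl12 at chr6:117168285-117168584 (plus), Ccr9 at chr9:123766961-123767260 (plus) and Cx3cr1 at chr9:120068247-120068546 (minus). Capitals mark matches to 6 motifs on either strand. The GC box was searched as CCGCCC and the TATA box as TATAAA. The RUNX motif was searched as TGTGGT and that of the ETS family as GAGGAA. The GATA motif was searched as AGATAA, and the IRF motif as a pair of GAAA stretches 2 bases apart.
Cxcr4: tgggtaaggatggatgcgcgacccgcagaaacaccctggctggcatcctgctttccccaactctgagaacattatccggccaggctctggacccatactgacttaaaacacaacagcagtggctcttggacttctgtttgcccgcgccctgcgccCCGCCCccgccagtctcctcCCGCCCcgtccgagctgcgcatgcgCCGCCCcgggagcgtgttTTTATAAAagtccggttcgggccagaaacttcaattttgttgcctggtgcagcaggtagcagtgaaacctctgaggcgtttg
Cxcl12: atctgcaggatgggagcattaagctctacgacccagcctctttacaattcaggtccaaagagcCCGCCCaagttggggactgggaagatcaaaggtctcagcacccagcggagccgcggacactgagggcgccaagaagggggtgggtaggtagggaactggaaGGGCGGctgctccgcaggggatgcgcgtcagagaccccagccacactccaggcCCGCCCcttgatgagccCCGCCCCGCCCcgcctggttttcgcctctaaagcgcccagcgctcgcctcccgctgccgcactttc
Ccr9: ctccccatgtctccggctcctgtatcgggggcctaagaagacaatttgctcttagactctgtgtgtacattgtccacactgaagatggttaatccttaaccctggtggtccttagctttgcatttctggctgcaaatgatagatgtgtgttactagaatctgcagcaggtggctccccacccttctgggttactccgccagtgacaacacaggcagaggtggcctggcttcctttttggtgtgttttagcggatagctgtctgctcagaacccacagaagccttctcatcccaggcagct
Cx3cr1: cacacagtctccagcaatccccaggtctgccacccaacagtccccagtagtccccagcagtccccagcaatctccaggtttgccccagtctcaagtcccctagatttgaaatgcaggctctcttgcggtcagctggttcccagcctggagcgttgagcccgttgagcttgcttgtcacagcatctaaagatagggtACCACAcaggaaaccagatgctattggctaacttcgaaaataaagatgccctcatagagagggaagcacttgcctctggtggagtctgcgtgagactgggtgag
The window of Cxcr4 held 3 GC boxes, with first bases at -95, -75 and -50, and a TATA box at -30 that overlaps its match on the other strand. The window of Cxcl12 held 5 GC boxes, at -187, -86, -33, -16 and -11, with the last pair sharing a base. None of the other 6 windows held a GC box, a motif found in 35.7% of 32851 promoters, and a TATA box was found in 13.6%. Cx3cr1 held 1 RUNX match (16.8% of promoters) and Ccr9 held none of the 6 motifs. Of the others searched, GAGGAA was in 28.3%, AGATAA in 11.2% and the IRF motif in 3.44% of promoters. The GC content was 64.7% for Cxcl12, 59.3% for Cxcr4, 54.3% for Cx3cr1 and 51.3% for Ccr9, with a median of 52.7% over all windows. A match describes letters only and is not evidence of binding.

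Cxcl12 (chromosome 6, 117168535 to 117181368, protein coding) was the only one of the 9 genes highest in CD48dim with no read in CD41/CD9-negative. It was at 11.6 and 16.9 CPM in CD48dim (158 and 123 counts), 0.774 and 3.55 in CD34bright, 1.61 and 1.28 in CD48bright, and 0 in both CD41/CD9-negative libraries. The CD48dim libraries lay above the other 6, and those of CD34bright and CD48bright overlapped. The level in CD48dim was at least 119-fold above the floor of CD41/CD9-negative, which is 3 counts over that population (0.12 CPM), and the difference passed (adjusted p = 0.0157, edgeR). CD34bright and CD48bright lay at least 18.1-fold and 12.1-fold above the same floor without passing (adjusted p = 0.0966 and 0.19, edgeR). Both passed with DESeq2 (adjusted p = 0.00208 and 0.0102), where 4.74% and 2.78% of all genes did. Both also passed without the filter (0.0023 and 0.0118, edgeR), where 2.88% and 1.63% did. CD34bright passed with only the compared libraries (0.0219, edgeR), where 8.7% did. Floors and counting intervals cover counting error only. CD48bright was lower than CD48dim by a log2 difference of -3.29 ± 1.05 (SE) that did not pass (adjusted p = 0.225, edgeR), and CD34bright by -2.72 ± 1.02 (adjusted p = 0.209). The CD48bright difference passed with DESeq2 (adjusted p = 0.0245), where 5.76% of all genes did.

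In bulk RNA, fewer cells that express a gene and less RNA per cell cannot be told apart. Genes of stem cells (13 genes, among them Procr and Mecom) moved with Cxcl12. Their summed level was 2250 to 3253 CPM in CD48dim, 741 to 1105 in CD34bright, 824 to 831 in CD48bright and 333 to 486 in CD41/CD9-negative. Marrow stroma genes, the usual source of Cxcl12, summed to 34.1 to 56.9 CPM over 14 genes in CD48dim, below the 87.9 to 92.8 of CD34bright, with 53.2 to 65.3 in CD48bright and 50.1 to 56.2 in CD41/CD9-negative. Most of that sum was Pdgfrb. The other 13 stroma genes summed to 10.9 and 16.6 CPM in CD48dim, 8.22 and 6.03 in CD48bright, 1.39 and 3.34 in CD34bright and 2.28 and 1.7 in CD41/CD9-negative. Of them Col3a1 was at 0 in all 8 libraries, and Bglap and Foxc1 also in CD48dim. Col1a2, Ebf3, Lepr, Adipoq, Pdgfra, Kitl and Lum had their highest mean in CD48dim, each at 4.74 CPM or less. Col1a1, Cdh11, Dcn and Foxc1 had theirs in CD48bright and Bglap in CD41/CD9-negative. Of 6 stroma genes tested, 0 passed with edgeR between CD41/CD9-negative and CD48dim, where 4.02% of all genes did. Endothelial genes (12 genes) summed to 217 to 230 CPM in CD48dim, 175 to 194 in CD34bright, 137 to 201 in CD48bright and 243 to 259 in CD41/CD9-negative. Cdh5, Plvap and Stab2 were at 0 in CD48dim. Tie1 and Tek were highest there, at means of 82.1 and 45 CPM against 0.643 and 1.42 in CD41/CD9-negative. Pecam1 had means of 68.2 CPM in CD48dim and 206 in CD41/CD9-negative. Of the list 2 passed as higher in CD41/CD9-negative than in CD48dim and 2 as lower (edgeR), where 1.98% and 2.04% of all genes did. The part of these genes in the Cxcl12 difference was not tested.

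The Cxcl12 call in the test of any difference (adjusted p = 0.044, edgeR) was lost when any library of CD34bright, CD48bright or CD41/CD9-negative was left out (adjusted p of 0.0511 to 0.165). Against CD48dim, the lower level in CD41/CD9-negative was lost without CD41/CD9-negative replicate 1 or 2 (adjusted p = 0.111 and 0.109) and with only the compared libraries in the fit (0.0566).

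Cxcr4 (chromosome 1, 128588199 to 128592299, protein coding), the receptor of Cxcl12, was read in every library. It was at 150.4 and 149 CPM in CD41/CD9-negative, 81.1 and 112 in CD34bright, 59.6 and 74.2 in CD48bright, and 28.9 and 45.5 in CD48dim. No neighbouring populations overlapped in this order. CD41/CD9-negative exceeded CD48dim by 2.01 ± 0.36 (SE) on the log2 scale (adjusted p = 0.019, edgeR). The steps between neighbours did not pass: CD41/CD9-negative over CD34bright was 0.63 (adjusted p = 0.654), CD34bright over CD48bright 0.53 ± 0.35 (adjusted p = 1) and CD48bright over CD48dim 0.85 ± 0.35 (adjusted p = 0.317). CD34bright exceeded CD48dim by 1.38 ± 0.36 (adjusted p = 0.104), and this difference passed with the replicate block (adjusted p = 0.0311). The test of any difference gave an adjusted p of 0.0615, or 0.0172 with the block, 0.0103 without CD48dim replicate 1 and 0.00434 without CD48dim replicate 2. The difference that passed was lost without CD41/CD9-negative replicate 1 or 2 (adjusted p = 0.116 and 0.117) and with only the compared libraries (0.114).

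**Figure D2:**
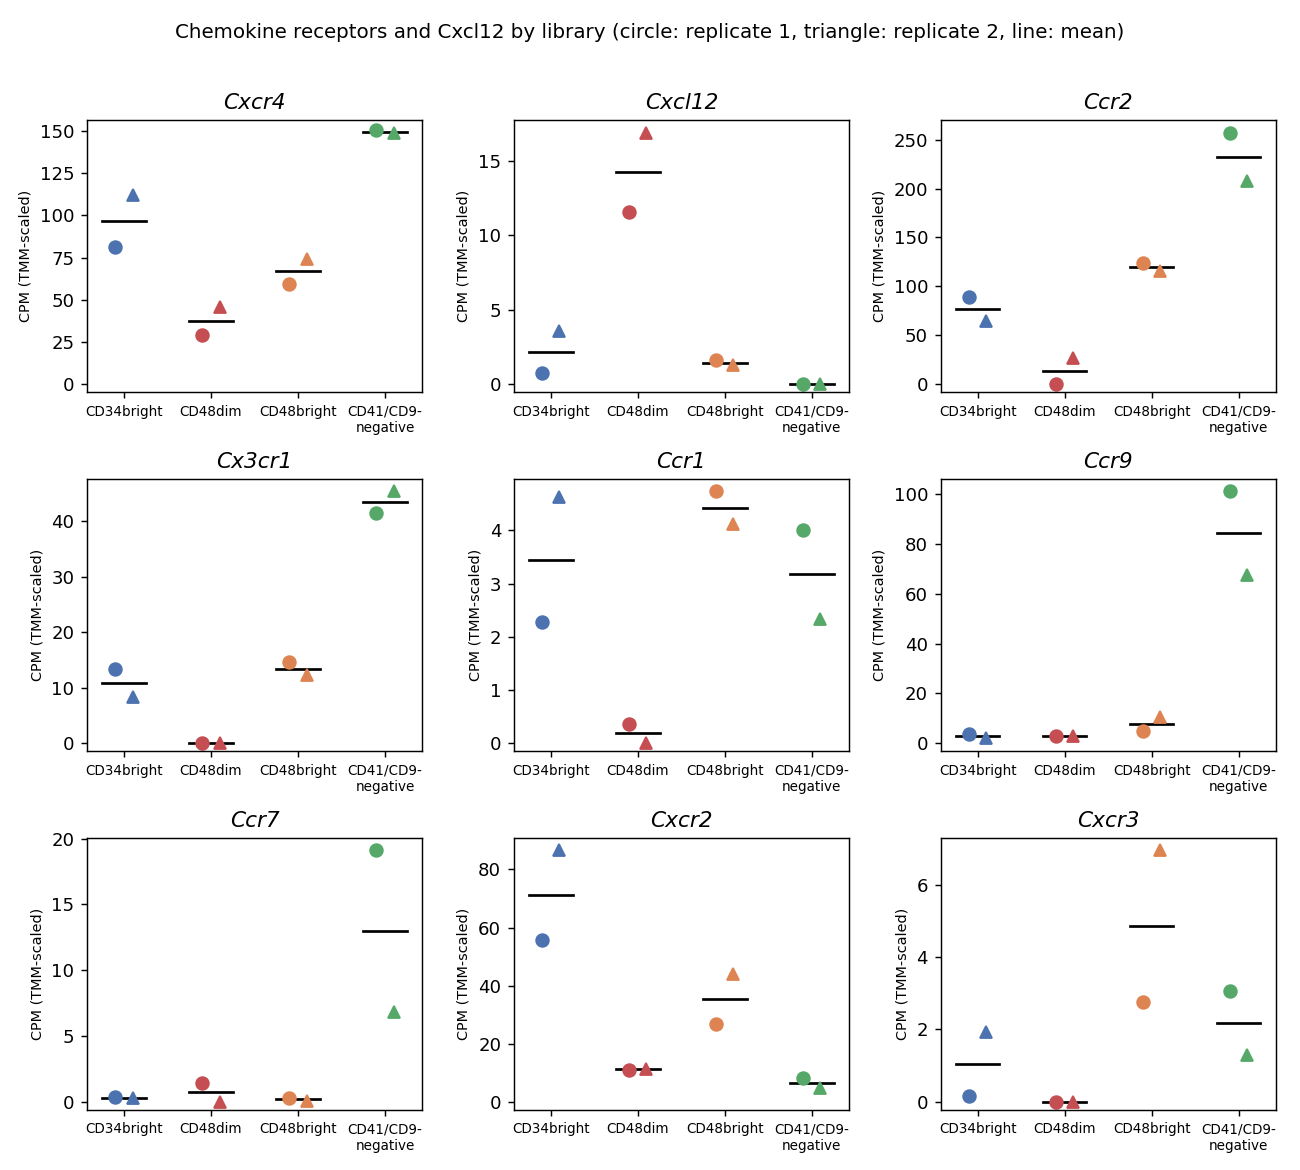
Level of each of the 9 genes in each library (vertical axis, CPM after TMM scaling, from 0) by sorted population, with a line at the mean of 2 libraries. Cxcl12 is highest in CD48dim (11.6 and 16.9 CPM) and at 0 in CD41/CD9-negative, whereas Cxcr4, Ccr2, Ccr9, Ccr7 and Cx3cr1 are highest in CD41/CD9-negative.

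The other known receptor of Cxcl12, the scavenger Ackr3, had 0 counts in all 8 libraries. Dpp4, a protease that cleaves Cxcl12 and was named after its values were seen, was higher in CD41/CD9-negative. It was at 179 ± 29.4 CPM there (SD, n = 2), 52.3 ± 9.05 in CD48dim, 87.6 ± 22.5 in CD48bright and 66.7 ± 15.3 in CD34bright. The log2 fold change of CD41/CD9-negative over CD48dim was 1.78 ± 0.36 (adjusted p = 0.0291, edgeR).

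Ccr2, Cx3cr1 and Ccr1 are receptors of monocytes and dendritic cells, and all were lowest in CD48dim. Cx3cr1 (chromosome 9, 120048683 to 120068296, protein coding), the receptor of fractalkine, was at 41.5 and 45.4 CPM in CD41/CD9-negative, 14.6 and 12.3 in CD48bright, 13.3 and 8.39 in CD34bright, and 0.0734 and 0 in CD48dim. A single count was read over both CD48dim libraries, CD48bright and CD34bright overlapped, and CD41/CD9-negative lay above all others. The ratio to CD48dim was 907 for CD41/CD9-negative, with a 95% exact binomial counting interval of 162 to 35855 (adjusted p = 0.00114, edgeR). For CD48bright the ratio was 287 with an interval of 51.2 to 11357 (adjusted p = 0.0124). For CD34bright it was 235 with an interval of 41.9 to 9300.2 (adjusted p = 0.0239). The step from CD48bright to CD41/CD9-negative, a log2 fold change of 1.69 ± 0.53, did not pass (adjusted p = 0.365), nor did the step from CD34bright, where CD34bright was lower by -2.00 ± 0.54 (adjusted p = 0.166).

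With all 8 libraries, Cx3cr1 passed in the test of any difference (adjusted p = 0.00474, edgeR). With only the compared libraries in the fit, its differences of CD48bright and CD34bright from CD48dim did not pass (adjusted p = 0.319 and 0.262), and those from CD41/CD9-negative did (0.0389 and 0.00167). The CD34bright call was also lost without CD34bright replicate 1 (0.0804) or either CD41/CD9-negative library (0.0712 and 0.0722 without replicate 1 and 2). Without CD48dim replicate 1 or 2, the differences between CD41/CD9-negative and CD48bright (adjusted p = 0.0335 and 0.0326) and between CD34bright and CD41/CD9-negative (0.00882 and 0.00821) passed.

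Ccr2 (chromosome 9, 124101918 to 124109140, protein coding), the receptor of the monocyte chemoattractant Ccl2, was highest in CD41/CD9-negative. It was at 257 and 208 CPM there, 124 and 116 in CD48bright, 89.3 and 64.2 in CD34bright, and 0.147 and 27.2 in CD48dim. No populations overlapped, but the CD48dim libraries held 2 and 198 counts and stood far apart. CD41/CD9-negative exceeded CD48dim by 4.12 ± 1.31 on the log2 scale without passing (adjusted p = 0.127, edgeR). The test of any difference gave an adjusted p of 0.332. Ccr2 passed once either CD48dim library was left out: without replicate 1 the same log2 fold change was 3.10 (adjusted p = 0.000282), and without replicate 2 it was 10.55 (adjusted p = 2.53e-06). In those fits the spread within CD48dim does not enter, and the lone library is assumed to vary like the other populations. The difference between CD34bright and CD41/CD9-negative, -1.60 ± 1.17 (adjusted p = 0.77), passed without CD48dim replicate 1 (0.00432), without replicate 2 (0.00356) and with only the compared libraries (0.00133).

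Ccr1 (chromosome 9, 123962126 to 123968692, protein coding), an inflammatory receptor of Ccl3 and Ccl5, was low throughout. It was at 4.73 and 4.11 CPM in CD48bright, 2.27 and 4.62 in CD34bright, 4.01 and 2.34 in CD41/CD9-negative, and 0.367 and 0 in CD48dim, where 5 counts were read in all. CD48dim lay below the other 6 libraries. No Ccr1 difference passed in the main test (any difference, adjusted p = 0.31, edgeR). The log2 fold change of CD48bright over CD48dim was 4.35 ± 1.34 (adjusted p = 0.203, edgeR), or 8.93 without CD48dim replicate 1, with no count left in CD48dim. With DESeq2 the differences of CD48bright, CD41/CD9-negative and CD34bright from CD48dim passed (adjusted p = 0.0145, 0.0213 and 0.0192), where 5.76%, 11.7% and 9.77% of all genes did.

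Markers of monocytes and dendritic cells (14 genes, Ccr2 and Cx3cr1 among them) summed to 2574 to 2969 CPM in CD41/CD9-negative, 648 to 839 in CD48bright, 532 to 539 in CD34bright and 191 to 312 in CD48dim. Batf3, Cd209a and Siglech were at 0 in CD48dim. Zbtb46 had its highest mean in CD48dim (5.17 CPM), against 4.54 in CD41/CD9-negative. Tcf4, Spib and Bst2 had their lowest mean in CD34bright, and Batf3 its highest in CD48bright. Of the 14, 9 passed as higher in CD41/CD9-negative than in CD48dim, where 4.02% of all genes passed in either direction. In CD48bright 6 passed as higher than in CD48dim (0.387%). Cx3cr1 was among the genes that passed in both pairs. The part of these cells in the receptor differences was not tested.

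Ccr9 and Ccr7 are homing receptors of lymphoid and dendritic cells, Ccr9 also of plasmacytoid dendritic cells, and both were concentrated in CD41/CD9-negative. Ccr9 (chromosome 9, 123767211 to 123783457, protein coding) was at 101 and 67.5 CPM there, 4.84 and 10.5 in CD48bright, 3.61 and 1.99 in CD34bright, and 2.86 and 2.89 in CD48dim. CD41/CD9-negative lay above all others, and CD34bright and CD48dim overlapped. The log2 fold change over CD48dim was 4.87 ± 0.62 (adjusted p = 0.00445, edgeR). CD34bright was lower than CD41/CD9-negative by -4.90 ± 0.61 (adjusted p = 0.0124). The excess over CD48bright, 3.46 ± 0.57, did not pass (adjusted p = 0.0617) but did with the replicate block (0.0361), with only the compared libraries (0.00245), without CD48dim replicate 1 (0.00122) and without CD48dim replicate 2 (0.000749). Among the 3 lower populations none of the pair differences passed, the largest being -1.44 ± 0.54 for CD34bright against CD48bright (adjusted p = 1).

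The Ccr9 calls leaned on the CD41/CD9-negative libraries. Without replicate 1 of that population, the test of any difference (adjusted p = 0.00474 with all, 0.0717 without, edgeR) and the difference from CD48dim (0.053) no longer passed. The CD34bright difference was lost without CD34bright replicate 1 (0.085), CD34bright replicate 2 (0.169) or either CD41/CD9-negative library (0.164 and 0.0702 without replicate 1 and 2).

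Ccr7 (chromosome 11, 99144199 to 99155077, protein coding), which guides cells to lymph nodes, was at 19.1 and 6.86 CPM in CD41/CD9-negative, 0.361 and 0.284 in CD34bright, 0.312 and 0.0914 in CD48bright, and 1.47 and 0 in CD48dim. CD41/CD9-negative lay above all others, which overlapped with each other, and CD48dim replicate 1 held all 20 counts of its population. The log2 fold change of CD41/CD9-negative over CD48bright was 5.87 ± 1.61 (adjusted p = 0.266, edgeR) and over CD48dim 4.05 ± 1.45 (adjusted p = 0.166), and CD34bright was lower by -5.29 ± 1.55 (adjusted p = 0.206). The test of any difference gave an adjusted p of 0.0875, or 0.0362 with the replicate block. Without CD48dim replicate 1 it was 0.00067, without CD48dim replicate 2 it was 0.00141, and with only the compared libraries the differences from CD48bright (0.00898) and CD34bright (0.000198) passed.

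Lymphoid genes (15 genes, among them Dntt, Flt3 and Rag1) summed to 2574 to 3815 CPM in CD41/CD9-negative, 725 to 728 in CD48bright, 616 to 701 in CD34bright and 285 to 490 in CD48dim. Of these genes Nkg7 and Cd3e had their highest mean in CD48bright. Nkg7 had means of 323 CPM in CD48bright, 302 in CD34bright, 162 in CD48dim and 52.5 in CD41/CD9-negative, a large part of the sums outside CD41/CD9-negative. Siglech, a marker of plasmacytoid dendritic cells, was at 199 and 151 CPM in CD41/CD9-negative and between 0 and 25 in the other 6 libraries. Whether Ccr9 and Ccr7 came from such cells was not tested.

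Cxcr2, the receptor through which chemokines release neutrophils from the marrow, was the gene highest in CD34bright. Cxcr2 (chromosome 1, 74153994 to 74161246, protein coding) was at 55.8 and 86.9 CPM in CD34bright, 26.8 and 43.9 in CD48bright, 11.1 and 11.3 in CD48dim, and 8.34 and 4.76 in CD41/CD9-negative. No populations overlapped, and the order differed from that of Cxcr4 in placing CD41/CD9-negative last. CD34bright exceeded CD41/CD9-negative by 3.44 ± 0.51 on the log2 scale (adjusted p = 0.0234, edgeR). Its excess over CD48dim, 2.67 ± 0.49, did not pass (adjusted p = 0.053) but did with the replicate block (0.0232) and without CD48dim replicate 1 (0.00403) or CD48dim replicate 2 (0.0131). Between neighbours, the differences were 1.01 ± 0.46 for CD34bright over CD48bright (adjusted p = 1), 1.66 ± 0.47 for CD48bright over CD48dim (0.182) and -0.77 ± 0.47 for CD41/CD9-negative against CD48dim (0.411), none of which passed. CD41/CD9-negative was below CD48bright by -2.43 ± 0.49 (adjusted p = 0.103), which passed with only the compared libraries (0.0239) and without CD48dim replicate 1 (0.00514) or 2 (0.00406).

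Mature neutrophil genes (10 genes, among them S100a8 and Csf3r) did not follow Cxcr2 in sum. They summed to 882 to 4354 CPM in CD48dim, 184 to 768 in CD41/CD9-negative, 292 to 323 in CD48bright and 250 to 252 in CD34bright, where Cxcr2 was highest. In CD48dim and CD41/CD9-negative the higher sum was that of replicate 1. Csf3r made up most of the sum in CD34bright and CD48bright, with means of 174 and 207 CPM. It was highest in CD48dim (230) but, like Cxcr2, lowest in CD41/CD9-negative (107). The Cxcr2 call in the test of any difference (adjusted p = 0.0194, edgeR) was lost without CD34bright replicate 2 (0.097) or either CD41/CD9-negative library (0.0795 and 0.0849 without replicate 1 and 2). The difference from CD41/CD9-negative was lost without CD34bright replicate 1 (0.0865), CD34bright replicate 2 (0.199) or either CD41/CD9-negative library (0.167 and 0.196 without replicate 1 and 2).

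Cxcr3 (chromosome X, 101731535 to 101734147, protein coding), the receptor of interferon-induced chemokines, was low. The CD48bright libraries were at 2.76 and 6.95 CPM, those of CD41/CD9-negative at 3.07 and 1.29, those of CD34bright at 0.155 and 1.92, and those of CD48dim had 0 counts. CD48bright, CD41/CD9-negative and CD34bright each overlapped with a neighbour in that order, and CD48dim lay below all. CD48bright was at least 33.8-fold, CD41/CD9-negative at least 15.2-fold and CD34bright at least 7.22-fold above the CD48dim floor of 3 counts (0.144 CPM). With DESeq2 these differences passed (adjusted p = 0.00477, 0.0124 and 0.0498), where 5.76%, 11.7% and 9.77% of all genes did. Without the filter those of CD48bright and CD41/CD9-negative passed (0.0152 and 0.0266, edgeR), where 3.18% and 6.44% of all genes did. In the main test none of the differences passed with edgeR (adjusted p = 0.168, 0.116 and 0.184). The first passed without CD48dim replicate 1 (0.0489).

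Levels of different receptors were compared per transcript length, as the deposited TPM. Cxcr4 had the highest TPM of the 8 receptors in every library. It took 49.6% and 55.9% of their summed TPM in CD34bright, 76.3% and 69.2% in CD48dim, 40.5% and 42.8% in CD48bright, and 42.3% and 48.8% in CD41/CD9-negative. Its share was thus highest in CD48dim, where its own TPM (31.6 and 74.1) and the sum of all 8 receptors (41.5 and 107) were lowest in mean, with a sum of 386 and 410.2 in CD41/CD9-negative. Ccr2 was second in every library of CD48bright and CD41/CD9-negative, and either Ccr2 or Cxcr2 was second in each library of CD34bright and CD48dim. Ccr2 took 39.4% and 31.4% in CD48bright and 33.8% and 32.1% in CD41/CD9-negative. In CD34bright Ccr2 took 25.6% and 15% and Cxcr2 19.1% and 24.2%. In CD48dim Ccr2 took 0.193% and 19.5% and Cxcr2 16.4% and 9.63%, so the order of these receptors changed between the replicates of both populations. Cxcr2 took 1.31% and 0.877% in CD41/CD9-negative, where Ccr9 took 10.9% and 8.52%. Shares within a library sum to a fixed total, so a rise of one lowers the others.

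**Figure D3:**
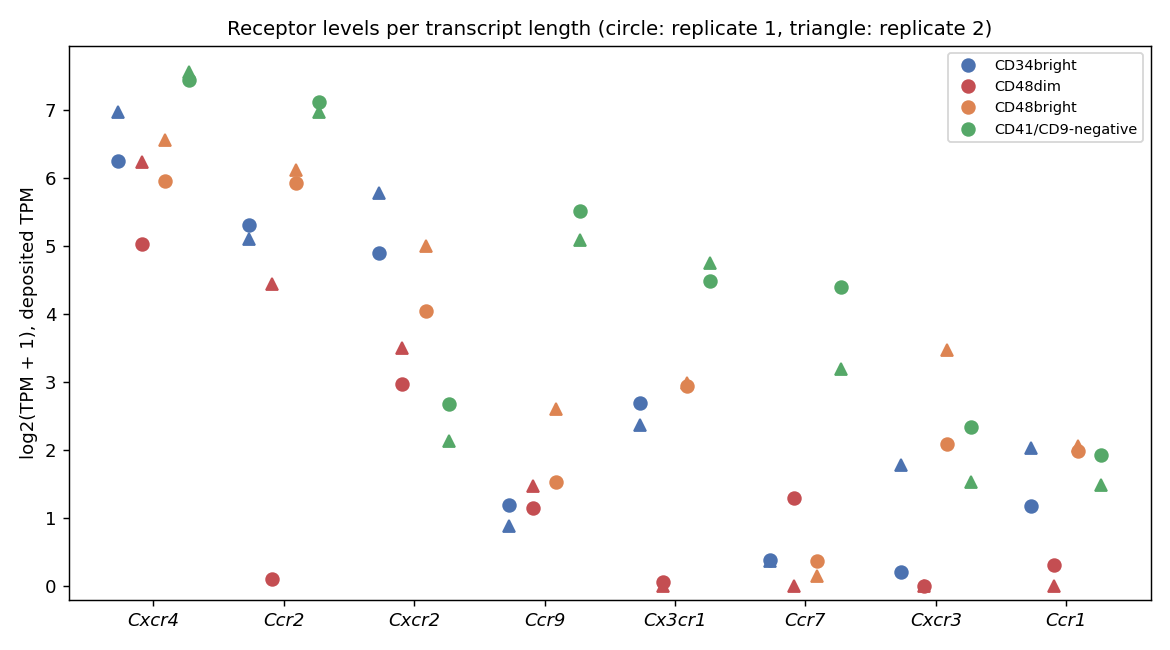
Levels of the 8 receptors in each library as log2(TPM + 1) (vertical axis), ordered by mean TPM and coloured by population. Cxcr4 is the highest receptor in each library, and Ccr9 and Ccr7 stand out in CD41/CD9-negative alone.

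Most other genes of the chemokine system did not pass. Of 18 other chemokine receptors 9 were tested and 0 passed with edgeR in the test of any difference (2.44% of all genes). There 1 had an unadjusted p under 0.05, and 1 passed with DESeq2 (13% of all genes). In CD41/CD9-negative against CD48dim 1 of them was higher with edgeR (1.98%) and 2 passed with DESeq2 (11.7%). Xcr1 (0.49 ± 1.34), Cxcr6 (-1.26 ± 1.61) and Ccr3 (-2.73 ± 2.01), neighbours of Ccr9, Ccr1 and Ccr2 on chromosome 9, had log2 fold changes of CD41/CD9-negative over CD48dim that did not pass. The deposited spread of the count from shared reads was 0 for each of the 9 genes in every library. Their expected counts were whole numbers, so no division of their reads between genes was seen. Whether reads shared by near-identical receptor genes were left out before counting was not stated. Of 36 other chemokines 16 were tested, and in CD41/CD9-negative against CD48dim 1 was higher and 1 lower, with a median of 0.53. The median was 0.02 over 15 genes, with 2 at 0 held at their bound and 1 left out because its level did not exceed the floor. Of 41 genes of chemokine receptor signalling 39 were tested, and in that pair 1 was higher (Dpp4) and 1 lower, with a median of 0.29. In each of the other 5 pairs 0 genes of these lists passed with edgeR, where 3 to 15 had an unadjusted p under 0.05 and 0 to 8 passed with DESeq2. Over all genes 262 to 2505 had an unadjusted p under 0.05 in those pairs, and 0.281% to 9.77% passed with DESeq2.

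Ccl3, a ligand of Ccr1, passed in the test of any difference (adjusted p = 0.0396, edgeR). It was at 280.3 ± 0.549 CPM in CD41/CD9-negative (SD, n = 2), 91 ± 50.4 in CD48bright, 51.8 ± 14.6 in CD34bright and 29.2 ± 19.4 in CD48dim, and CD41/CD9-negative exceeded CD48dim by 3.27 ± 0.58 (adjusted p = 0.0175). Its annotated span overlaps that of Ccl4, and the libraries carry no strand, so reads in the overlap cannot be told apart. Plcb2, a phospholipase activated by the G proteins of these receptors, ran the other way, from 558 ± 92.1 CPM in CD48dim to 306 ± 30.7 in CD48bright, 235 ± 12.6 in CD34bright and 146 ± 21.7 in CD41/CD9-negative. It passed in the test of any difference (adjusted p = 0.0417) and was lower in CD41/CD9-negative than in CD48dim by -1.93 ± 0.32 (adjusted p = 0.0124). Pf4, the platelet chemokine, was named after its values were seen. It was at 13.3 ± 8.7 CPM in CD48dim, 4.24 ± 0.0424 in CD48bright, 4.96 ± 3.95 in CD34bright and 0 in CD41/CD9-negative, which was lower than CD48dim (adjusted p = 0.0146).

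Apart from the Ccr1 ligands Ccl3 and Ccl9, the chemokines named here as ligands of the receptors were scarce. Ligands that are not chemokines were not covered. Ccl9 was at 262 ± 44 CPM in CD34bright, 213 ± 23.5 in CD48bright, 87.4 ± 13.6 in CD41/CD9-negative and 23.9 ± 28.6 in CD48dim, but the test of any difference did not pass (adjusted p = 0.152, edgeR). Ccl5 ranged from 0.514 to 11.1 CPM and Ccl6 from 2.11 to 13.2. Ccl25, the ligand of Ccr9, ranged from 1.13 to 16.1 CPM, with its highest value in CD48dim replicate 2. The Ccr7 ligand Ccl19 ranged from 0 to 8.3 CPM, with its highest value in CD48dim replicate 1. Ccl2 stayed at 0 to 4.94 CPM, Cx3cl1 at 0 to 1.65, Cxcl9 at 0 to 1.46 and Cxcl10 at 0.514 to 6.76. The Cxcr2 ligands Cxcl2 and Ppbp stayed at 0 to 1.55 and 0 to 2.06 CPM. Ccl7, Ccl12, Ccl21a, Cxcl1 and Cxcl11 had 0 counts in all 8 libraries.

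**Figure D4:**
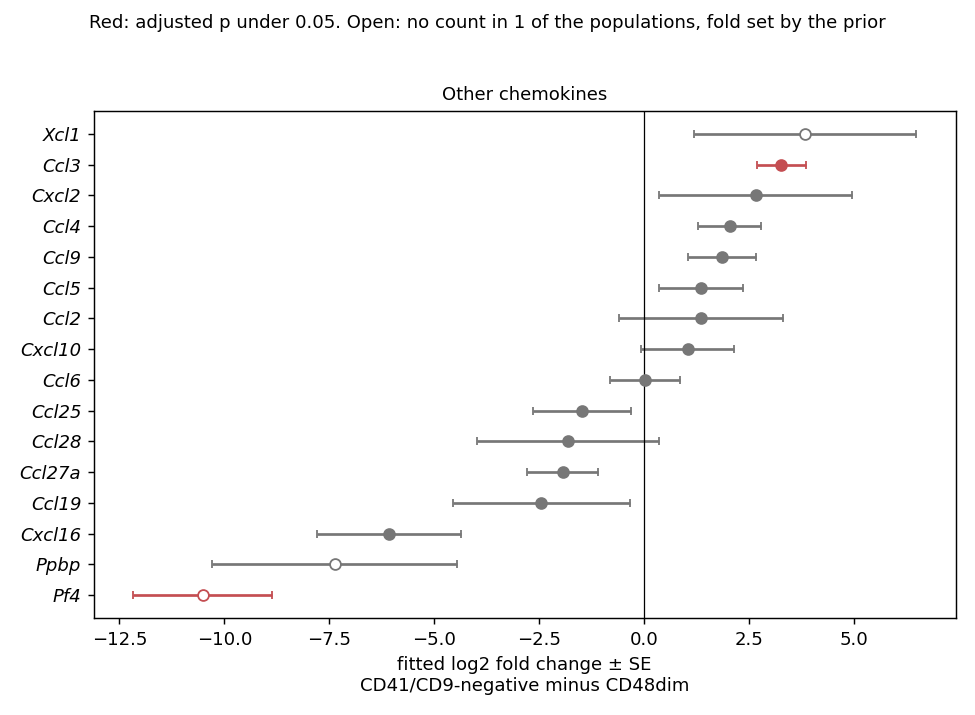
Fitted log2 fold change ± SE of CD41/CD9-negative over CD48dim (horizontal axis) for the 16 tested genes among other chemokines. Ccl3 (3.27) and Pf4 pass at an adjusted p under 0.05 (red), and open symbols mark genes with no count in a population, whose fold depends on the fit's prior.

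Across the 8 libraries in 4 populations, log2(CPM + 1) of Cxcl12 had a Pearson r of -0.98 with Cx3cr1 and -0.83 with Cxcr4. Cxcr4 and Cx3cr1 had an r of 0.88, and Ccr7 and Ccr9 of 0.89. Cxcr2 was unlike the rest, with an r of -0.02 with Cxcr4 and -0.63 with Ccr9. These values describe 8 points that share libraries, scaling and population means.

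By the same measure among 10063 genes with a mean of at least 5 CPM, Zbed4 (r = 0.978), Zfp946 (0.978) and Milr1 (0.972) were most like Cxcr4. Pcbp2 (0.978), Mtpn (0.975) and Galnt3 (0.974) were most like Ccr2. Rbm47 (0.987), Cox6a2 (0.984) and Txndc16 (0.983) were most like Ccr9. Clec2i (0.991), Fam45a (0.988) and Itga1 (0.984) were most like Cx3cr1. Gab2 (0.982), Pomt1 (0.971) and Ctc1 (0.968) were most like Cxcr2. Cxcl12, Ccr1, Ccr7 and Cxcr3 had a mean under 5 CPM and were not searched. Milr1, Pcbp2, Cox6a2, Clec2i, Itga1 and Pomt1 overlap another gene of the tables, so part of their reads is uncertain. This weighs most on Clec2i, with 1390 counts against 19381 for BC035044, and Itga1, with 906 against 1528 for Pelo.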

How the data were processed

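Per the labels' protocols, Trizol and column extraction gave total RNA, cDNA was amplified with Ovation RNA-Seq System V2 before a TruSeq preparation, and the libraries are not stranded. The submitters' processing notes list STAR 2.7.2a, RSEM 1.3.2, edgeR 3.30.3 and mm10. Settings of alignment and the gene annotation used were not given.

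The deposited expected counts of each gene, in RSEM's layout per the file headers, were rounded, which changed at most 2.2% of the genes of a library. The authors' deposited TPM values were used only to compare levels between genes. A deposited smaller table with the same expected counts for 9918 genes was compared and not tested.

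Genes were kept by filterByExpr of edgeR 4.0.16 by population, scaled by TMM and tested with glmQLFit and glmQLFTest in 1 model with a mean per population, so that all 8 libraries share the spread (4 residual degrees of freedom). Calls need a Benjamini-Hochberg adjusted p under 0.05 over 13177 genes, in 7 comparisons. Tests are two-sided. The standard error is the log2 fold change over the square root of F, an approximation. The software was R 4.3.3 with limma 3.58.1, and DESeq2 1.42.0 for an alternative. The test was tried on simulated counts with the same spread for every gene and library, which does not show how it performs on these libraries. Depths of 7237587 to 20632005 counts put the floor of 3 counts at 0.155 to 0.412 CPM in a library.

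The difference of replicate 2 from replicate 1 correlated between every pair of populations (0.161 to 0.313 over 13177 genes), so the numbers may pair the libraries. The main model did not include the replicate number, and its p-values ignore any such pairing. A fit with the number as a block was run as an alternative. What the replicate numbers mark was not stated. The 9 genes and the gene lists were chosen with earlier results of these data known. Named genes are the 9, their known ligands, list genes that passed in the test of any difference, the 3 most alike genes, and those said to be named after their values were seen. Listed Grk2 and Grk3 were matched as Adrbk1 and Adrbk2. Alternatives were DESeq2 size factors, no filter, the DESeq2 test, the replicate block, a fit of the compared libraries only, and leaving out each library. Positions and promoters are those of RefSeq. Some genes of the lists are not reported here. Cluster numbers in the titles were not used, since they differ from those in the series' design.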

Additional observations from a re-analysis of the deposited data

How the results depend on the processing

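Of 63 values (9 genes in 7 comparisons), all kept their direction and call with DESeq2 size factors. No value reversed and none lost its call with the DESeq2 test, without the filter or with the replicate block, which added 22, 19 and 5 calls. The block changed no other call of the 9 genes than the 5 given beside the results. The fit of the compared libraries only added 8 calls and lost 4. Leaving out a library kept 426 values, added 43 calls, lost 26 and reversed 9, and the cause was not tested. The reversed log2 fold changes had not passed, and with a library left out they ranged as follows. Ccr1 went from -0.94 to 0.0607 in CD34bright against CD48bright and from -0.44 to 0.57 against CD41/CD9-negative (-0.22 without CD41/CD9-negative replicate 2). Ccr9 went from -0.52 to 0.40 in CD34bright against CD48dim (0.0057 without CD41/CD9-negative replicate 1). In CD34bright against CD48bright, Cxcl12 went from -0.87 to 1.29 and Cx3cr1 from -0.68 to 0.0126, each turning without CD34bright replicate 2. Against CD48dim, Ccr7 went from -2.95 to 4.63 in CD48bright and from -2.14 to 5.20 in CD34bright, turning without CD48dim replicate 1.

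Counts are given in the order any difference, CD48bright against CD48dim, CD41/CD9-negative against CD48dim, CD41/CD9-negative against CD48bright, CD34bright against CD48dim, CD34bright against CD48bright and CD34bright against CD41/CD9-negative. Of the 9 genes, 4, 1, 4, 0, 1, 0 and 2 passed. Without the filter 8, 3, 7, 4, 4, 0 and 5 passed, and with DESeq2 7, 5, 7, 5, 5, 0 and 5. With the replicate block 6, 1, 4, 1, 3, 0 and 2 passed. With only the compared libraries 0, 2, 4, 0, 0 and 6 passed in the 6 pairs. With a library left out they ranged from 1 to 7, 1 to 6, 1 to 7, 0 to 6, 0 to 5, 0 to 0 and 0 to 6.

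Over all genes 322, 51, 530, 28, 76, 0 and 111 passed. Without the filter 1607, 588, 1191, 301, 1018, 39 and 532 passed, and with DESeq2 1718, 759, 1536, 366, 1288, 37 and 624. With the replicate block 764, 178, 965, 99, 682, 0 and 266 passed, and with only the compared libraries 0, 129, 307, 0, 0 and 1081 in the 6 pairs. With a library left out they ranged from 32 to 3399, 4 to 3211, 81 to 3295, 0 to 435, 0 to 3911, 0 to 20 and 3 to 772, the highest of each without a CD48dim library. Of the 3 lists of the chemokine system 2 genes passed in the test of any difference, 13 without the filter, 14 with DESeq2, 5 with the replicate block and 0 to 14 with a library left out. Depth limits the scarce genes: at 3 counts or fewer, where a lower level was not detectable, were Cxcr3 and Cx3cr1 in both CD48dim libraries, Cxcl12 in both CD41/CD9-negative libraries, Ccr2 in CD48dim replicate 1, Ccr1 and Ccr7 in CD48dim replicate 2, Ccr7 in CD48bright replicate 2 and Cxcr3 in CD34bright replicate 1.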
